A study of Mus musculus with 30 samples.

Results

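The mRNAs of 10 factors of decapping, 5′-3′ decay and the PAN2-PAN3 deadenylase were described in 2 cultured lines of mouse spermatogonial stem cells (SSCs). The genes were taken from a list by name, *Dcp2*, *Dcp1a*, *Dcp1b*, *Edc3*, *Edc4*, *Ddx6*, *Lsm1*, *Xrn1*, *Pan2* and *Pan3*, and not by a filter on their values. The list was chosen with earlier results of these data known. All 10 were among the 13904 genes with an FPKM, and 8 of them were among the 5806 transcripts with a half-life in both lines. *Dcp1a* and *Pan2* had no half-life listed.

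Both lines were derived from testes of mice at postnatal day 7, of mixed DBA/2J and C57BL/6 background, and were grown on feeder cells. Both carried the *Nanos2* TAG allele, in which an epitope tag with EGFP follows the start codon of *Nanos2*, on 1 chromosome in line 4 (TAG/+) or on both in line 5 (TAG/TAG). Neither genotype lacks NANOS2, an RNA-binding repressor of undifferentiated spermatogonia, so the lines compare copies of the tagged allele and not presence with absence of the protein. Each genotype was represented by 1 line. RNA-seq of ribosomal RNA-depleted total RNA was made from 1 library per line, with RNA extracted by QIAzol for TAG/+ and by Trizol for TAG/TAG according to the labels, whereas the methods name QIAzol alone. The genotype of each FPKM column was read from the letters of its name (GG for TAG/TAG, Gp for TAG/+). SLAM-seq, in which 4-thiouridine marks new RNA as T-to-C conversions, was made from 12 libraries per line, 2 technical replicates at each chase time of 0, 30, 60, 120, 540 and 1440 min, and gave 1 half-life per transcript and line. Genotype, line and, for RNA-seq, extraction reagent cannot be told apart, and no p-value could be given with 1 value per line.

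FPKM, the reads of a gene per kb of length and per 1000000 reads, corresponded to whole reads for 100% of 13867 genes when the mean length of the annotated transcripts was used (within 0.02 of a read). The depths were then 10908790 (TAG/+) and 11738620 (TAG/TAG). The recovered reads of these genes summed to 10931439 and 11627842. The sum exceeded the depth in TAG/+, so these depths are scaling values and not totals of reads. Of 8 fixed markers of undifferentiated spermatogonia, 7 were listed, at 1.76 to 107 FPKM (TAG/+) and 1.59 to 181 FPKM (TAG/TAG), with a summed level of 342 and 638. The 8 include *Ddx4* and the unlisted *Dazl*, which are not restricted to undifferentiated cells. Of the 7, 4 were higher in TAG/TAG, with most of the difference in *Ret* (73.2 and 181), *Etv5* (46.0 and 178) and *Gfra1* (56.2 and 111), beside *Ddx4* (31.0 and 41.4). *Nanos2* (27.5 and 23.8), *Zbtb16* (107 and 102) and *Id4* (1.76 and 1.59) were lower. The labels state that feeders were depleted and the methods that SSCs were sorted before extraction. Fibroblast markers were listed for 7 of 8, with sums of 309 and 367 FPKM, most of which was *Fn1* (254 and 280), and 6 of the 7 were higher in TAG/TAG. All 3 markers of differentiating spermatogonia were lower in TAG/TAG, with sums of 63.6 and 47.3 FPKM. No listed marker was at 0 in either library. The part of these differences in the values below was not tested, and in bulk RNA fewer cells of a type and less RNA per cell cannot be told apart.

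Most mRNAs are degraded after their poly(A) tail is shortened. PAN2-PAN3 trims long tails and CCR4-NOT shortens them further, after which the LSM1-7 ring with PATL1 binds the short tail and recruits the decapping machinery. DCP2 removes the 5′ cap with its coactivator DCP1, and EDC3, EDC4 and the helicase DDX6 assemble or stimulate this complex in P-bodies, before XRN1 digests the uncapped body in the 5′-3′ direction. In the male germline NANOS2 recruits CCR4-NOT to mRNAs, so the 10 factors act before and after that step.

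The 3′ UTR is the part of an mRNA in which repressors such as NANOS2 commonly bind. The motif that the study derived from its CRAC crosslinking experiment takes 4 forms of 7 bases. The words AUGAAAU and AUUAAAU differ in a single base, and so do the remaining words AUGAAUU and AUUAAUU, and all 4 were searched on the sense strand of 1 principal transcript per gene in GENCODE M21. Overlapping matches were allowed. Matches occurred in the 3′ UTR of 7 of the 10 genes, 12 in all, and 38.7% of 12436 listed genes with a 3′ UTR had at least 1. The 12 matches correspond to 0.463 per kb of 3′ UTR over the 10 genes and to 0.495 per kb over all genes, so the density of the words in the decay factors was close to that in general. The 10 3′ UTRs were long for the most part, 7 of them above the median of 1045 bases (all listed genes). The matches outside *Dcp2* are printed below, since each is a place at which the mRNA of a decay factor carries a word of that motif. Capitals mark the heptamer, T stands for U, and all lie on the plus strand of GRCm38 within 1 exon.
Dcp1a, chr14:30524665-30524693: gaaaattacttATTAATTacttcttttac
Dcp1a, chr14:30524892-30524920: agcaaccaaaaATTAATTgttcacgtgtc
Dcp1a, chr14:30526069-30526097: ttcttgtgggaATTAATTataaatgccat
Edc3, chr9:57749712-57749740: accctagtaccATGAATTtttcaggctgc
Ddx6, chr9:44639860-44639888: gtaacaaaaagATGAAATaagtttgtggg
Lsm1, chr8:25803204-25803232: catactgcaatATGAAATacactttttta
Xrn1, chr9:96052895-96052923: ggtatgtttagATTAAATattttttattt
Pan3, chr5:147546481-147546509: ttaatagcaaaATGAAATtgtgctgaagg
Pan3, chr5:147547538-147547566: ctagaagaaatATGAAATgcttaatttat

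The words were unevenly placed. *Dcp1a* held AUUAAUU 3 times in 3757 bases, and 30.3% of 1191 3′ UTRs within 1.25-fold of that length held at least as many matches to any of the 4 words. *Pan3* held AUGAAAU at bases 105 and 1162 after the stop codon, and 26.7% of 1829 3′ UTRs of like length had as many matches. The single match of *Xrn1* stood in a 3′ UTR of 218 bases, a length at which 10.8% of 842 3′ UTRs had a match, whereas the single matches of *Edc3* and *Ddx6* stood in 4004 and 4250 bases, lengths at which 77.0% and 79.1% of 3′ UTRs had 1 or more. *Lsm1* held 1 match in 1877 bases, where 50.1% of 3′ UTRs had one. *Dcp2* held 3 matches in 7240 bases, and 64.5% of 259 3′ UTRs of like length had at least 3. *Dcp1b*, *Edc4* and *Pan2* had no match in 1536, 346 and 588 bases, and 45.7%, 16.4% and 23.2% of 3′ UTRs of those lengths had one. A second word, UGUANAUA, which Pumilio proteins bind, matched in 5 of the 10 genes (*Dcp2*, *Dcp1a*, *Edc3*, *Ddx6* and *Lsm1*) and in 25.3% of all 3′ UTRs, and it was added after the data were seen. In 3′ UTRs of like length to these 5 it matched in 74.9%, 50.5%, 52.4%, 54.0% and 33.0%, respectively. For the genes without it (*Dcp1b*, *Edc4*, *Xrn1*, *Pan2* and *Pan3*) the shares were 29.7%, 9.37%, 5.70%, 14.6% and 36.5%. In *Dcp1a* one such word, at chr14:30524883-30524890, lay just before the second AUUAAUU, at chr14:30524903-30524909. A match describes letters and not binding.

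All 10 mRNAs were present in both lines, over a range of levels. By mean FPKM the order was *Edc4*, *Dcp1a*, *Pan2*, *Pan3*, *Ddx6*, *Edc3*, *Dcp1b*, *Lsm1*, *Xrn1* and *Dcp2*. The scaffold *Edc4* stood at 147 FPKM on average and the catalytic subunit *Dcp2* at 7.46, and the mRNA of the enzyme at the centre of the pathway was thus the scarcest of the 10. The values of the 2 lines overlapped for 4 of the 9 neighbouring pairs in this order, *Edc4* with *Dcp1a*, *Pan3* with *Ddx6*, *Ddx6* with *Edc3* and *Lsm1* with *Xrn1*. That range holds the difference between the lines. Within each library *Ddx6* exceeded *Edc3* (46.9 over 36.7 in TAG/+, 27.1 over 25.8 in TAG/TAG). *Lsm1* likewise exceeded *Xrn1* (15.5 over 12.3 and 10.83 over 10.75). The other overlapping neighbours changed order between the lines.

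The order depended in part on the gene length. Many annotated transcripts of these genes are short fragments, and the mean length was 1889 bases for the 18 transcripts of *Dcp1a*, 1817 for the 23 of *Pan3* and 1070 for the 4 of *Lsm1*, against 5576, 5048 and 2663 bases for their principal transcripts. Dividing the same reads by the principal length, an alternative chosen after seeing the data, left *Edc4* first (79.6 reads per kb, at the scale of FPKM, on average) and *Dcp2* last (3.90), and changed the rank of the other 8 genes. *Pan2* then came second (50.8), *Dcp1a* next (45.1) and *Pan3* seventh (15.2). Differences between the lines are the same with either length.

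**Figure D1:**
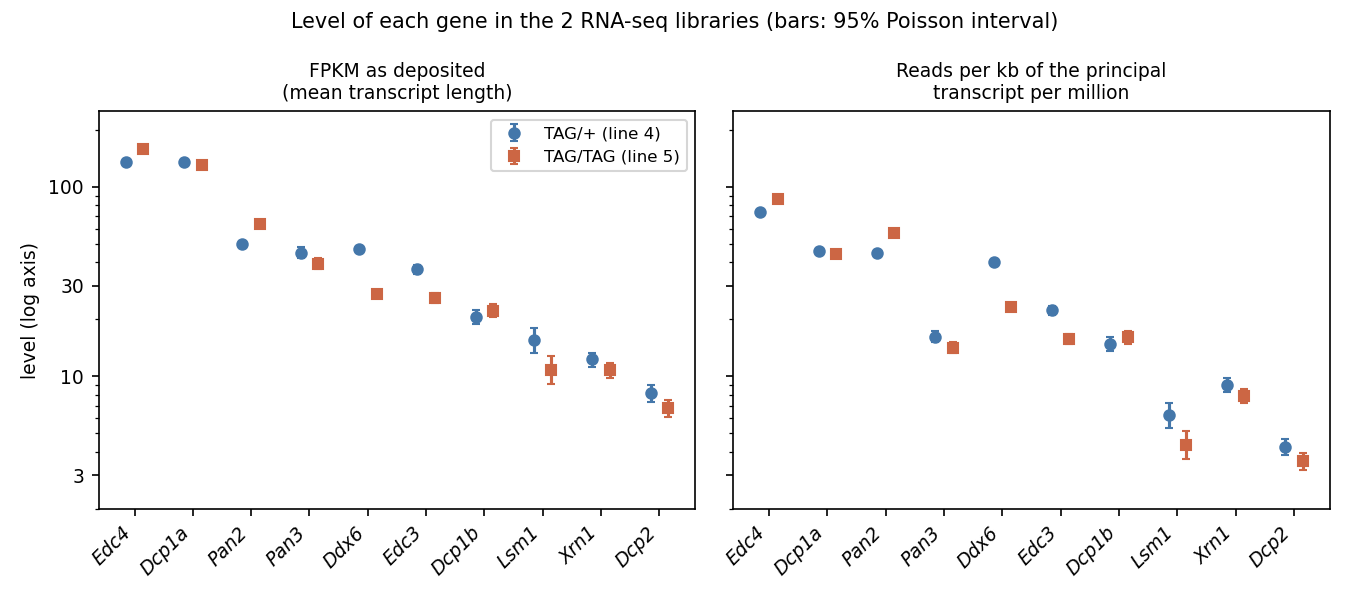
Levels of the 10 mRNAs in the RNA-seq libraries of TAG/+ (circles) and TAG/TAG (squares) on a log axis, as deposited FPKM on the left and per kb of the principal transcript on the right, with 95% Poisson intervals of the reads as bars. *Edc4* is highest and *Dcp2* lowest on both scales, *Pan3* moves down on the right, and the gap between the lines is widest for *Ddx6*.

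Among the decapping enzyme and its coactivators, the levels differed little between the lines. *Dcp2*, which cleaves the cap, was at 8.14 FPKM in TAG/+ (400 reads, 95% Poisson interval 7.36 to 8.97) and at 6.79 FPKM in TAG/TAG (359 reads, 6.10 to 7.53). *Dcp1a*, its coactivator, was at 136 FPKM in TAG/+ (131 to 141) and 131 FPKM in TAG/TAG (126 to 136), and the intervals overlapped. *Dcp1b*, the paralog of *Dcp1a*, was at 20.5 (18.8 to 22.3) and 22.2 (20.5 to 24) FPKM. These intervals cover counting error only. *Dcp1a* exceeded *Dcp1b* 6.62-fold in TAG/+ and 5.89-fold in TAG/TAG on the FPKM scale, and 3.09-fold and 2.75-fold per kb of principal transcript. It exceeded *Dcp2* 16.7-fold and 19.3-fold on the FPKM scale, or 10.8-fold and 12.5-fold per kb of principal transcript.

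The decapping scaffolds and enhancers differed more, in both directions. *Ddx6*, a DEAD-box helicase that represses translation and promotes decapping, was at 46.9 FPKM in TAG/+ (2661 reads, 45.2 to 48.7) and at 27.1 FPKM in TAG/TAG (1656 reads, 25.8 to 28.5). This was 1.73-fold lower in TAG/TAG, a log2 difference of -0.79 (95% counting interval -0.88 to -0.70). *Edc3*, which binds DCP2 and DDX6, was at 36.7 (34.8 to 38.7) and 25.8 (24.3 to 27.4) FPKM, 1.42-fold lower in TAG/TAG. *Lsm1*, the subunit that sets the cytoplasmic LSM ring apart from the nuclear one, was at 15.5 FPKM from 181 reads (13.3 to 17.9) and 10.8 FPKM from 136 reads (9.09 to 12.8), 1.43-fold lower. *Edc4*, the scaffold that holds DCP1 and DCP2 together, went the other way, with 135 (131 to 140) and 159 (154 to 163) FPKM. The ratio of *Edc4* to *Ddx6* was 2.89 in TAG/+ and 5.85 in TAG/TAG, a 2.03-fold difference between the lines, whichever length is used. In the sequences, 270 of the 6016 50-base stretches of the principal *Ddx6* transcript (4.49%) also occurred in the transcript of 1 other gene, *Gm13410*. For the principal transcripts of the other 9 genes that share was at most 0.669% (*Dcp1a*). Over all annotated transcripts, which the FPKM use, it was 6.18% for *Edc4* (shared with *Nrn1l* and *Nap1l3*), 3.36% for *Ddx6* and at most 0.615% for the other 8 (*Pan2*). In the annotation, 458 exon bases of *Edc4* overlapped *Nrn1l* on the same strand. For *Edc3*, 1284 exon bases overlapped *Clk3* on the opposite strand.

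*Xrn1*, the cytoplasmic 5′-3′ exonuclease, was at 12.3 FPKM in TAG/+ (540 reads, 11.3 to 13.4) and 10.8 FPKM in TAG/TAG (509 reads, 9.84 to 11.7). The Poisson intervals of the 2 libraries overlapped. Of the deadenylase, the catalytic subunit *Pan2* was at 49.6 (47.6 to 51.8) and 63.4 (61.2 to 65.7) FPKM, whereas *Pan3*, which binds poly(A)-binding protein and RNA, was at 44.9 (42.0 to 47.9) and 39.3 (36.7 to 42.1) FPKM. The partners thus differed in opposite directions, and the ratio of *Pan2* to *Pan3* was 1.11 in TAG/+ and 1.61 in TAG/TAG on the FPKM scale, or 2.76 and 4.03 per kb of principal transcript. Neither difference was unusual in size. Of genes with FPKM of 1 or more in both libraries, 54.8% differed at least as much as *Pan2* in either direction, and 73.9% as *Pan3*.

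Over the 10 genes, 1 level differed by more than 1.5-fold between the lines. A 1.5-fold difference on the log2(FPKM + 0.1) scale was passed by 1 of 10 lower in TAG/TAG, *Ddx6*, and by 0 of 10 higher. Among the 11480 genes with FPKM of 1 or more in both libraries, 16.9% were past 1.5-fold lower and 17.4% past 1.5-fold higher. *Ddx6* was not an extreme case, since 22.6% of all genes differed by at least as much in either direction. *Edc3* and *Lsm1*, at log2 differences of -0.51 and -0.51, were matched or exceeded by 40.3% and 39.7% of genes, and *Dcp1a*, at -0.06, by 92.3%. Of the 10, 7 (*Dcp2*, *Dcp1a*, *Edc3*, *Ddx6*, *Lsm1*, *Xrn1* and *Pan3*) were lower in TAG/TAG by any amount, and 51.1% of all genes were. The median log2 difference was -0.19 over the 10 and -0.02 over all genes. The 95% counting interval of the ratio left out 1 for 8 of the 10 genes, all but *Dcp1a* and *Dcp1b* and for 68.4% of all genes.

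The half-lives of the decay factors were mostly short to intermediate. In TAG/+ the median of the 8 was 182 min and that of all 5806 transcripts 224 min, with the middle 50% between 162 and 289 min. In TAG/TAG the medians were 207 and 226 min, with the middle 50% of all transcripts between 159 and 300 min. By mean half-life the order was *Edc4* (277 min), *Ddx6* (222 min), *Lsm1* (208 min), *Dcp2* (192 min), *Xrn1* (181 min), *Dcp1b* (178 min), *Edc3* (160 min) and *Pan3* (126 min). The values of the 2 lines overlapped for 5 of the 7 neighbouring pairs. The exceptions were *Edc4* over *Ddx6* and *Edc3* over *Pan3*, although the range of *Dcp1b* (96.1 to 259 min) enclosed that of *Pan3*.

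*Pan3* was the least stable by the mean of both lines, and *Dcp1b* the least stable in TAG/+ alone. *Pan3* had 116 min in TAG/+ and 136 min in TAG/TAG, at percentiles 10.5 and 18.3 of all transcripts. It was the single member in the shortest 25% in both lines, where 15.6% of all transcripts were. *Edc3* followed with 147 and 173 min, at percentiles 19.8 and 29.9. *Xrn1* had 162 and 200 min, *Lsm1* 202 and 215 min, and *Ddx6* 202 and 243 min. *Edc4* had 260 and 295 min, and was the single one above the median of all transcripts in both lines (percentiles 65.2 and 73.6). *Dcp2* had 213 min in TAG/+ and 171 min in TAG/TAG, the one mRNA with a shorter half-life in TAG/TAG. Of the 8, 5 (*Dcp2*, *Edc3*, *Lsm1*, *Xrn1* and *Pan3*) were below the median in both lines, and 39.8% of all transcripts were.

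**Figure D2:**
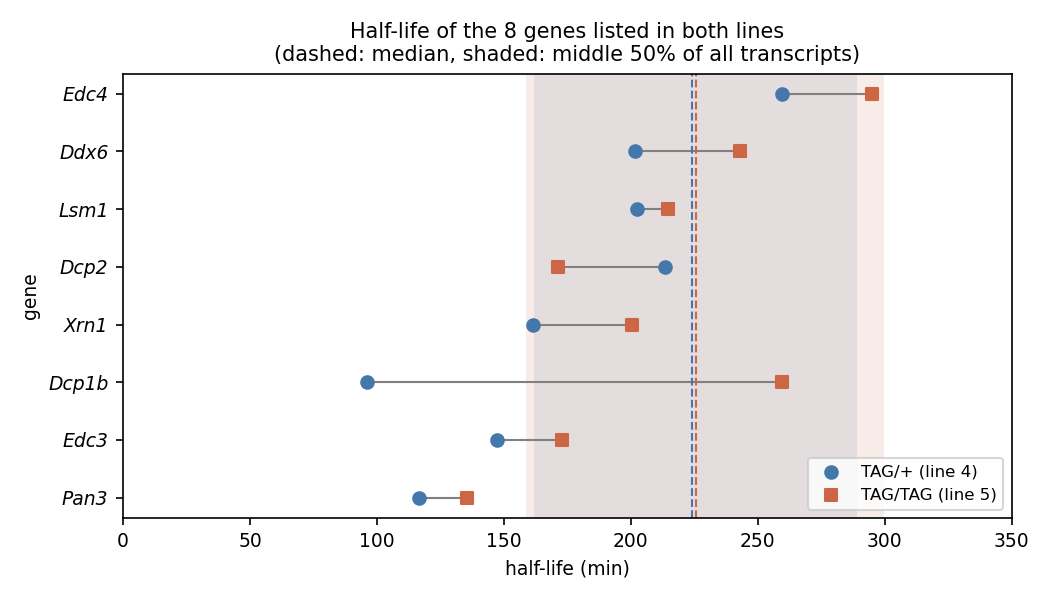
Half-lives in min of the 8 mRNAs listed in both lines, in TAG/+ (circles) and TAG/TAG (squares), joined by a grey line for each gene, with the median (dashed) and middle 50% (shaded) of all 5806 transcripts in each line. The squares lie to the right of the circles for 7 of 8 genes, by far the most for *Dcp1b* (96.1 and 259 min), and *Dcp2* goes the other way.

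Between the lines, 7 of the 8 half-lives were longer in TAG/TAG, and 54.1% of all transcripts were. Most of these differences were small. *Xrn1* was 1.24-fold longer, *Ddx6* 1.20-fold, *Edc3* 1.17-fold, *Pan3* 1.16-fold, *Edc4* 1.14-fold and *Lsm1* 1.06-fold, and 43.9% to 81.5% of all transcripts differed by at least as much as these 6 in either direction. *Dcp2* was at 0.803 of its TAG/+ value. The median log2 difference was 0.23 over the 8 and 0.04 over all transcripts. The half-lives were deposited with neither an error nor a read depth, and whether any of these differences exceeds the error of the decay fit was not tested.

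*Dcp1b* stood apart. Its half-life was 96.1 min in TAG/+, at percentile 5.92 of all transcripts, and 259 min in TAG/TAG, at percentile 63.1, a 2.70-fold difference (1.43 on the log2 scale). It was the only 1 of 8 past 1.5-fold longer, and 0 of 8 were past 1.5-fold shorter, where 10% and 10.7% of all transcripts were. A difference at least as large in either direction was seen for 120 of 5806 transcripts (2.07%), and for 11 of 515 (2.14%) in the bin of transcripts of like level, at mean FPKM between 15.3 and 21.9. Its level was nearly the same in both libraries, at 1.08-fold, with a counting interval on the log2 scale from -0.06 to 0.28. None of the 50-base stretches of its transcripts occurred in another gene. Its 3′ UTR, at 1536 bases, held none of the words searched.

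Level and half-life differences were also set side by side. Of the 8 genes, 5 (*Edc3*, *Ddx6*, *Lsm1*, *Xrn1* and *Pan3*) had a lower FPKM and a longer half-life in TAG/TAG, and 29.2% of the 5057 genes with FPKM of 1 or more in both libraries and a half-life did. That share leaves out genes with a higher FPKM and a shorter half-life, so it is not the share of all genes with opposite signs, which was not computed. *Ddx6*, with the largest difference in level (1.73-fold lower), had a 1.20-fold longer half-life, and *Dcp1b*, with the largest difference in half-life, hardly differed in level. *Edc4* was higher in both and *Dcp2* lower in both. The same 2 lines underlie all of these values, so the genes are not independent of each other.

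**Figure D3:**
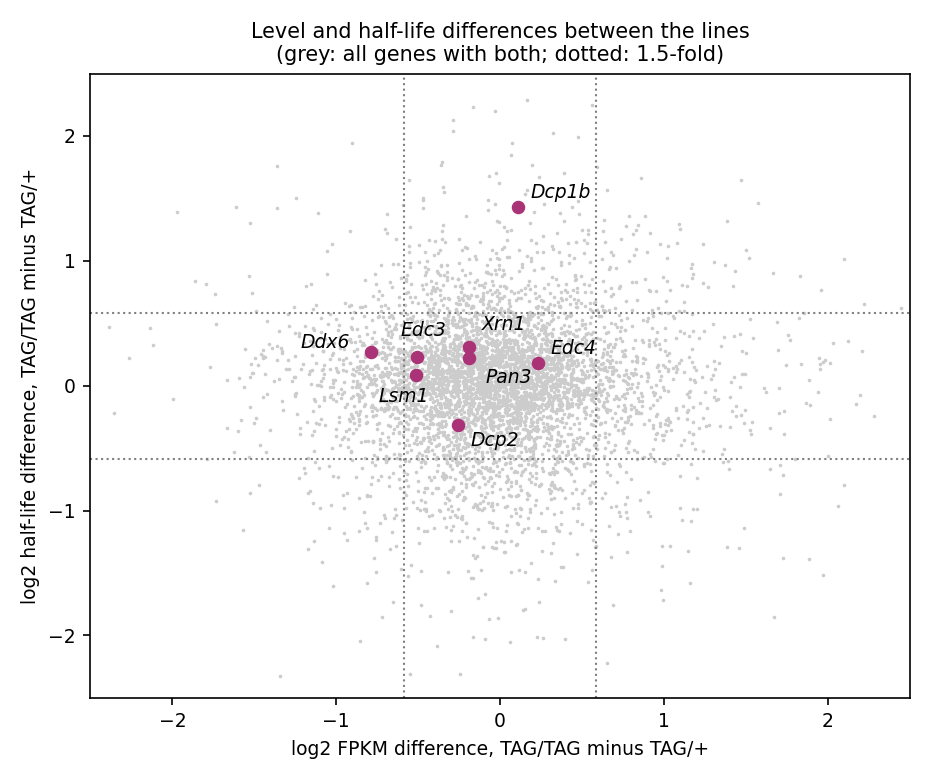
Log2 differences between TAG/TAG and TAG/+ in FPKM (horizontal axis) and half-life (vertical axis), for the 8 genes with both values (large points) and for all genes with FPKM of 1 or more in both libraries and a half-life (grey), with 1.5-fold marked by dotted lines. *Dcp1b* lies past the upper line at 1.43, *Ddx6* past the left line at -0.79, and the other 6 lie within both.

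Half-life and level are related across transcripts in these tables (Spearman's rho 0.49 in TAG/+ and 0.47 in TAG/TAG over 5152 transcripts that share libraries), so each half-life was also set against the median of transcripts of like level, in 10 bins of mean FPKM. *Pan3* was below its bin in both lines, at 0.486 and 0.562 of the bin median (percentiles 5.24 and 11.5 of the bin). So was *Edc3*, at 0.647 and 0.748 (percentiles 11.8 and 25.8). Of the 8 genes, 2 were thus below their bin in both lines and 2 above it, beside 1962 and 1959 of the 5152 transcripts. *Pan3* and *Edc3* were shorter-lived than the median of transcripts of like level as deposited FPKM. Their mean levels were lower per kb of principal transcript (*Pan3* 42.1 and 15.2, *Edc3* 31.2 and 19.0), and bins on that scale were not tried. *Dcp2*, the mRNA with the lowest level, was above its bin at 1.29 and 1.07, and *Lsm1* at 1.07 and 1.13. *Edc4* (0.962 and 1.06), *Ddx6* (0.886 and 1.05) and *Xrn1* (0.854 and 1.05) lay near their bins, and *Dcp1b* moved from 0.476 to 1.24. The median ratio over the 8 was 0.870 in TAG/+ and 1.06 in TAG/TAG.

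**Figure D4:**
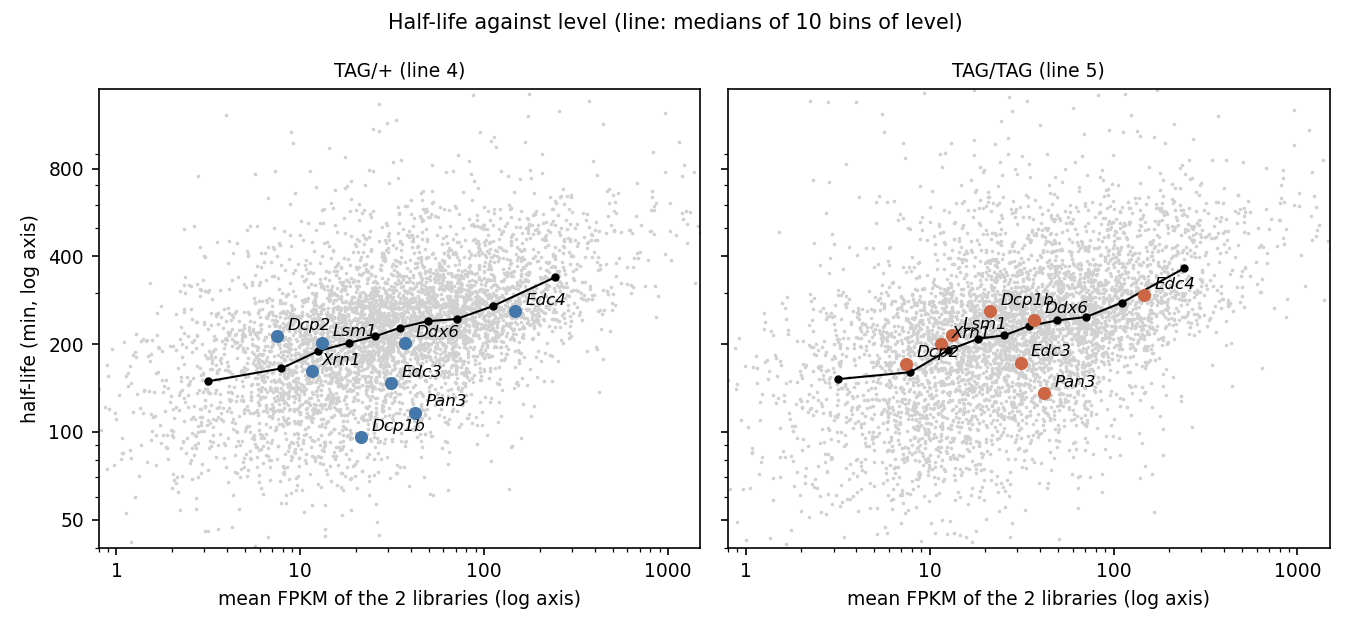
Half-life in min against mean FPKM, both on log axes, for all 5152 transcripts with both values (grey) and the 8 genes (coloured, named), in TAG/+ on the left and TAG/TAG on the right, with the medians of 10 bins of level as a black line. *Pan3* and *Edc3* lie below the line in both lines, and *Dcp1b* lies below it in TAG/+ and above it in TAG/TAG.

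For *Dcp1a* and *Pan2* no half-life was listed in either line, although they ranked second and the third of the 10 in mean FPKM. A half-life was listed for 37.1% of all 13904 genes, for 44.1% of those with FPKM of 1 or more in both libraries, and for 69.7% of the 2003 genes at or above *Pan2* in both. A missing half-life is thus common also at this level, and its reason is not given in the sources used here.

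In addition, 55 other genes of mRNA decay, in 5 lists by role, were used to place the 10. Of these, 46 had an FPKM (46 of 1 or more in both libraries) and 39 a half-life. Past 1.5-fold in FPKM were 5 of 46 higher and 12 of 46 lower in TAG/TAG, beside 17.4% and 16.9% of all genes. Past 1.5-fold in half-life were 2 of 39 longer and 8 of 39 shorter, beside 10% and 10.7% of all transcripts. The median log2 difference over these lists was -0.15 in FPKM and 0.07 in half-life, and 21 of 39 half-lives were longer in TAG/TAG, beside 54.1% of all transcripts. The median half-lives were 265 and 240 min, against 182 and 207 min for the decapping and PAN2-PAN3 factors. Medians of the 5 lists ran from 192 to 375 min in TAG/+ and from 202 to 315 min in TAG/TAG, lowest for the deadenylases in both. The sets also differed in level, with median FPKM of 47.3 and 38.8 over the 46 genes. For the 8 decapping and PAN2-PAN3 factors with a half-life the medians were 27.4 and 23.9 on the log2 scale. The sets were not compared at like level.

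The list of the other LSM ring subunits, which share a complex with *Lsm1*, and the PATL proteins had median half-lives of 375 and 299 min over 7 genes, the longest of the 5 lists in TAG/+. Within it *Patl1*, the LSM-binding activator of decapping, had 124 and 232 min (1.87-fold longer in TAG/TAG). *Lsm5* was the most different, with 22.6 and 8.86 FPKM (114 and 48 reads) and 375 and 74.9 min, and *Lsm7* had 67.4 and 28.8 FPKM. *Lsm2* was the most abundant of the list (232 and 246 FPKM). *Patl2*, a germ cell relative of *Patl1*, was the least abundant (1.05 and 2.48 FPKM, from 28 and 71 reads). *Lsm5*, *Lsm7* and *Patl2* were the 3 of the list past 2-fold in FPKM. *Lsm1* itself was less abundant than 5 of the 6 other ring subunits by mean FPKM, and had a shorter half-life than all of them in TAG/+. In TAG/TAG, *Lsm5* alone had a shorter half-life than *Lsm1* (74.9 and 215 min). There *Lsm5* and *Lsm6* were also below *Lsm1* in FPKM (8.86 and 9.86, beside 10.8).

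Among P-body repressors and cofactors, *Eif4enif1*, which binds the cap-binding protein and DDX6, was the most abundant (249 and 283 FPKM) and *Pnrc2*, a decapping coactivator, the least (25.9 and 14.7 FPKM). *Pnrc1*, its paralog, had 153 and 72.0 min, and *Tnrc6c*, an Argonaute-binding scaffold, 295 and 181 min, the 2 of 7 past 1.5-fold, both shorter in TAG/TAG. Of the other decapping and 5′-3′ enzymes, *Xrn2*, the nuclear counterpart of *Xrn1*, stood at 133 and 111 FPKM with a half-life of 290 and 523 min (1.80-fold longer), so that *Xrn1* was the scarcer and shorter-lived of the 2 exonucleases in both lines. *Dxo*, a decapping enzyme of quality control, was the most abundant of that list (162 and 184 FPKM). The least abundant was *Nudt16* (5.6 and 2.77 FPKM, from 75 and 40 reads).

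The deadenylases and adaptors held *Pabpc1*, the poly(A)-binding protein (748 and 658 FPKM), as the highest and *Cnot6*, a catalytic subunit of CCR4-NOT, as the lowest (5.74 and 8.91 FPKM). *Cnot8*, another catalytic subunit, had 7.46 and 15.3 FPKM and *Tob1*, an adaptor of CCR4-NOT, 7.89 and 18.9 FPKM, the 2 past 2-fold. *Cnot10* (456 and 251 min) and *Btg1* (125 and 81.5 min) were the 2 of 12 past 1.5-fold in half-life, both shorter. In the exosome and SKI list, which acts in the opposite 3′-5′ direction, *Exosc3* (208 and 72.8 min), *Exosc6* (125 and 69.0 min) and *Exosc8* (387 and 166 min) were shorter in TAG/TAG and 0 of 10 were past 1.5-fold longer. *Hbs1l* had 46.5 and 18.5 FPKM, the only one past 2-fold, *Exosc10* was the highest (161 and 213 FPKM) and *Dis3l* the lowest (4.03 and 2.47 FPKM).

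**Figure D5:**
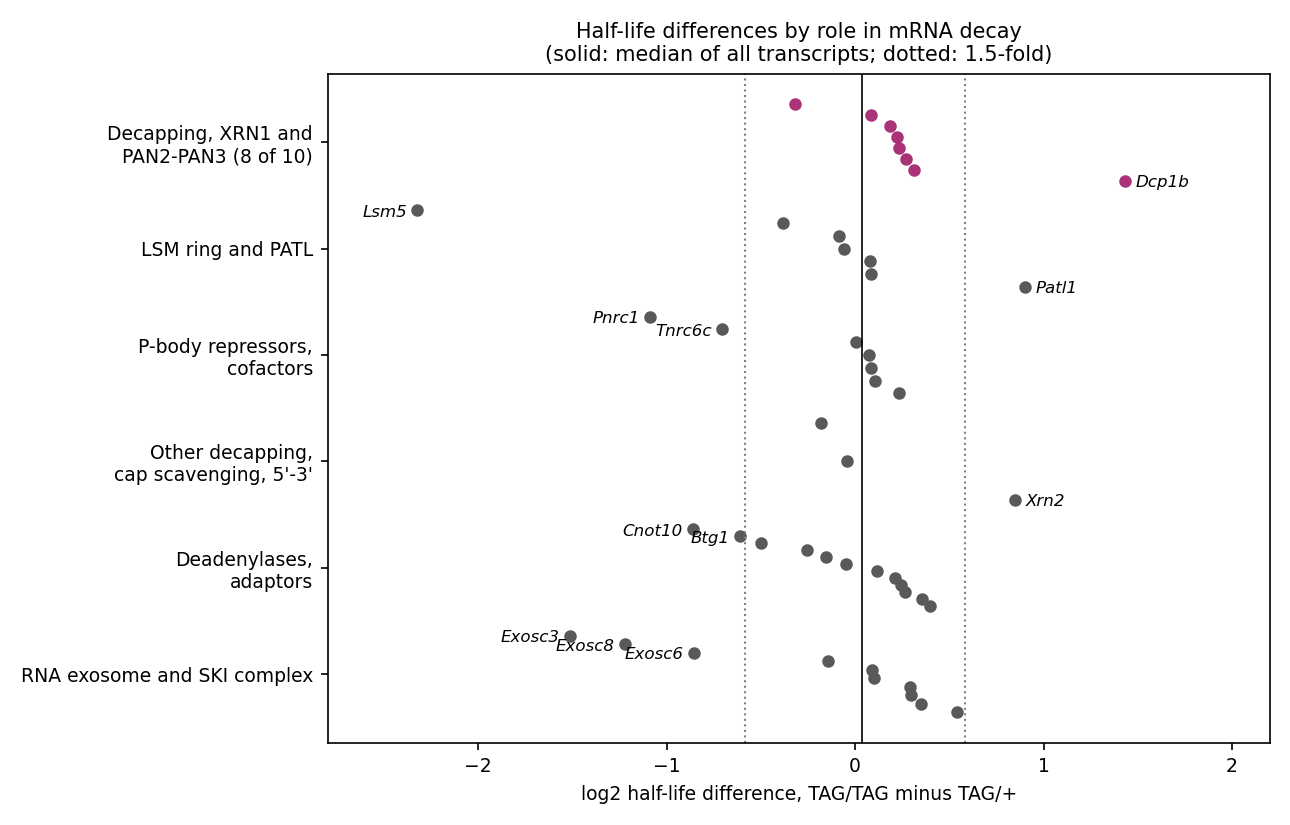
Log2 half-life differences between TAG/TAG and TAG/+ for the 8 decapping, XRN1 and PAN2-PAN3 mRNAs (top) and for 5 lists of other decay genes, 1 point per gene, with the median of all transcripts (solid line) and 1.5-fold (dotted lines). *Dcp1b* is the one point of the top list past a dotted line, and 10 points of the other lists are, 8 of them on the shorter side.

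On the log2 scale, the median of the 8 genes with all 4 values corresponded to 27.4 and 23.9 FPKM with half-lives of 181 and 207 min. The other decay genes nearest to it, by the largest absolute log2 difference over the 4 values, were *Cnot7*, a catalytic deadenylase of CCR4-NOT (0.32), *Cnot6l* (0.70) and *Pnrc2* (0.71). *Cnot7* had 28.9 and 19.2 FPKM and 205 and 223 min.

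By GENCODE M21 on GRCm38 all 10 genes lie on the plus strand. *Dcp1a* spans chr14:30479535-30527063, *Dcp1b* chr6:119175253-119221616, *Edc3* chr9:57708540-57752499, *Ddx6* chr9:44604892-44640731, *Xrn1* chr9:95954760-96057803, *Edc4* chr8:105880881-105894908, *Lsm1* chr8:25785288-25803975, *Pan2* chr10:128303335-128321358 and *Pan3* chr5:147430161-147548502. *Dcp2* spans chr18:44380502-44424969. The principal transcripts had between 4 exons (*Lsm1*) and 42 exons (*Xrn1*). *Xrn1* also has an annotated transcript with a 3′ UTR of 4994 bases, with 3 matches to the 4 words.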

How the data were processed

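The FPKM of 13904 genes were deposited by the authors for 1 RNA-seq library per line, and the submitters' processing notes name kallisto and DESeq2 for it. The half-lives were deposited in min, from T-to-C conversion rates that the authors obtained with SlamDunk, normalised to the start of the chase and fitted to first-order decay with nls after collapse of technical replicates, without errors. The filter on transcripts is not given in the sources used here. CRAC libraries were not analysed here.

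FPKM columns were assigned to genotypes by their letters. Reads were recovered as FPKM times mean transcript length (GENCODE M21, GRCm38) at the depth that made them whole, and 95% Poisson intervals and Clopper-Pearson intervals of the ratio were computed from them. These cover counting error only, and not error in assigning reads to genes. Whether the whole numbers were counts or rounded estimates was not tested. The difference between lines was taken on log2(FPKM + 0.1), with 1.5-fold as the limit, among genes with FPKM of 1 or more in both libraries. Sequences were read from GENCODE M21 transcripts and were identical in the RefSeq GRCm38 genome. Reads shared with other genes were searched as 50-base stretches.

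The members and lists were chosen with earlier results of these data known. All 10 members were described. Of each role list the highest and lowest in mean FPKM, those past 1.5-fold in half-life or 2-fold in FPKM, and the 3 nearest to the members were named. Scripts were tested on simulated data. Python 3.11.15, numpy 2.4.6, pandas 2.3.3, scipy 1.17.1 and matplotlib 3.10.9 were used.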

Additional observations from a re-analysis of the deposited data

How the results depend on the processing

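No paired analysis was possible because each line gave 1 value per gene and no test was made. The counts of the 10 genes past 1.5-fold in FPKM were the same with a pseudocount of 1 and centred on all genes, those past 1.5-fold in half-life were the same centred on all transcripts, that in the shortest 25% was the same over transcripts with an FPKM, and that with a motif match was the same in the longest 3′ UTR. The median FPKM difference and, with 20 bins or bins by the FPKM of the same line, the median ratio to the bin stayed on the same side. The count in the shortest 25% was also the same over transcripts with FPKM of 1 or more in both libraries. Other counts of the 10 genes had no alternative. Centring on all transcripts moved the median log2 half-life difference of the 8 genes from 0.23 to 0.19. Without bins, the median ratio of half-life to that of all transcripts was 0.919 in TAG/TAG, below 1, where it was 1.06 within bins. All genes past 1.5-fold numbered 3170 higher and 2696 lower without a filter on FPKM, and 1020 higher and 1127 lower at FPKM of 5 or more. All transcripts past 1.5-fold in half-life numbered 583 longer and 621 shorter, and 562 and 619 with half-lives of at most 1440 min. Merged exon lengths gave whole reads for 22.5% and 21.9% of genes. Of the 10 genes, depth limits *Lsm1* most, with 136 reads in TAG/TAG. Some of the other decay genes named had fewer, down to 28 reads for *Patl2* in TAG/+. The precision of half-lives is unknown.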
